A study of Mus musculus with 11 samples.

Results

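Levels of 9 listed genes of the Ly6/uPAR family of surface antigens were followed through sorted epidermal cells of mice: Ly6a, Ly6c1, Ly6c2, Ly6d, Ly6e, Ly6k, Ly6g6c, Lypd3 and Lynx1. They were listed by name, 9 of the 55536 genes in the files. The list was in part selected on measured values. Ly6d was taken up because its counts differed by tdT status, and Ly6a because its protein, SCA-1, set one of the sorting gates. Every difference of Ly6d, those of Ly6a between the populations, and, for all members, those by tdT status in CD34+ cells and the change of the tdT difference between the populations are therefore given as a description, with no test.

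RNA of 11 libraries from male CD4Cre R26-tdT mice on the C57Bl6/N background was sequenced, in 4 groups sorted from dorsal skin epidermis. The groups were tdT+ CD49f+CD34+ (3 libraries), tdTneg CD49f+CD34+ (3 libraries), tdT+ CD49f+CD34+SCA-1+ (3 libraries) and tdTneg CD49f+CD34+SCA-1+ cells (2 libraries). The CD49f+CD34+ cells were gated negative for SCA-1 and are called CD34+ cells here, and the others CD34+SCA-1+ cells. Each library pooled the cells of 2 mice. Libraries with replicate number 1 came from mice of 29 weeks and all others from mice of 32 weeks. All groups carried both transgenes: a Cre driven by Cd4 regulatory sequences and a tdTomato reporter at Rosa26 that stays on, in a cell and its descendants, once Cre has acted. A tdT+ cell is thus a cell with a history of Cd4-driven Cre, and T cells of these mice can carry the label too. The antibodies named for this sort were against CD49f, CD34 and SCA-1. Skin isolates of this kind can hold other CD34+ or SCA-1+ cells, such as endothelial cells, so their markers are given beside the results.

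Ly6 proteins share a small cysteine-rich fold, and most are held in the outer membrane by a glycolipid anchor. SCA-1 marks basal interfollicular and infundibular keratinocytes in skin and is high on many endothelial, haematopoietic and activated T cells. CD34 with CD49f (integrin alpha 6) marks the hair follicle bulge, the stem cell niche of the follicle. Ly6d is known from stratified epithelia and lymphoid progenitors, Ly6c1 and Ly6c2 from monocytes, T cells and endothelium, and Lypd3 (C4.4A) and Ly6g6c from keratinizing epithelia.

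In the GRCm38 annotation 7 of the members lie on chromosome 15: Lynx1 (74747852 to 74753046, minus strand), Ly6d (74762056 to 74763620, minus), Ly6k (74796874 to 74799986, minus), Ly6e (74955051 to 74959905, plus), Ly6a (74994877 to 74998031, minus), Ly6c1 (75044018 to 75048830, minus) and Ly6c2 (75108158 to 75111970, minus). Ly6g6c lies on chromosome 17 (35065388 to 35070050, plus) and Lypd3 on chromosome 7 (24636550 to 24641118, plus). Each is protein coding. Ly6c1 shares stretches of transcript sequence with Ly6c2 and with Ly6a, which bears on how their reads could be counted. Of the 1764 windows of 50 bases in annotated Ly6c1 transcripts, 379 also occur in Ly6c2 transcripts and 195 in Ly6a transcripts. In Ly6a, 246 of 1297 windows (19.0%) occur in another gene, and in Ly6c2 395 of 2733 (14.5%). The Ly6d, Ly6e, Ly6g6c and Lynx1 transcripts shared none. Ly6k shared 255 of 780 windows with the antisense Gm17189, and Lypd3 130 of 1600 with the antisense Gm26550. How reads with several matches were treated, and the strand setting, are not given in the sources used here. The counts of Ly6a, Ly6c1, Ly6c2, Ly6k and Lypd3 are uncertain to that extent.

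The likeness of Ly6c1 and Ly6c2 extends to their start regions, which are shown here. Their levels had a Pearson's r of 0.90 over the libraries, a value that reads from shared sequence could affect. A tie between levels and start regions was not tested. The promoter windows are those of RefSeq on GRCm38.p6, minus strand, from 250 bases before to 50 after an annotated start, at chr15:75048788-75049087 for Ly6c1 and chr15:75111922-75112221 for Ly6c2. In the best of the alignments between their annotated windows, 213 of 259 aligned bases were identical (82.2%). Capitals mark the bases that differ or have no partner within the aligned stretch.
Ly6c1: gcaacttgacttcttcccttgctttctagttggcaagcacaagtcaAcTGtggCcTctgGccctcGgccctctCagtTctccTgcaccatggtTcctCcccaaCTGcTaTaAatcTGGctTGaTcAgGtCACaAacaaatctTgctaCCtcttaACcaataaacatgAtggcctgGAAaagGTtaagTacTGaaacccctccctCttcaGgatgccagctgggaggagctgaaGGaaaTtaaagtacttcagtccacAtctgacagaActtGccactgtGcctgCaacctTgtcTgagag
Ly6c2: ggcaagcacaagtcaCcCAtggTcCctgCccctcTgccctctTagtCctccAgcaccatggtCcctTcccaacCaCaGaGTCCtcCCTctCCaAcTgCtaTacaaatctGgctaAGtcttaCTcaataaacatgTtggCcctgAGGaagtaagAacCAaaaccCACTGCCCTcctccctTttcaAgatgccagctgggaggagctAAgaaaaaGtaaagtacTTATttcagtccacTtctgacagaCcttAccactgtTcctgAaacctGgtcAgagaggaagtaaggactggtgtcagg
The table of promoter windows held 4 of the 9 members (Ly6c1, Ly6c2, Ly6g6c and Lypd3). None of their windows held GAAANNGAAA (the ISRE motif of interferon-responsive genes), TTCNNNGAA (the GAS motif) or TGANTCA (an AP-1 motif) on either strand, against 3.44%, 8.3% and 7.81% of 32851 windows of the same length. This says only that those letters are not in these windows.

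The libraries held 17409131 to 46542177 reads on genes. Levels are given as normalized CPM, read counts brought to a common library size after TMM scaling, and 20307 genes passed a filter on low counts. A gene was called at an edgeR quasi-likelihood adjusted p-value (Benjamini-Hochberg over all genes tested) under 0.05 with an absolute log2 fold change over 1. One row of the files, which they do not describe, stood at 133 to 307 CPM in 5 of the 6 tdT+ libraries and at 2.54 to 4.89 CPM in the tdTneg libraries. The library labelled tdT+ CD34+ replicate 2 had 37 counts of it, or 2.05 CPM (Wilson 95% interval 1.49 to 2.83, counting error only), and members' fold changes whose groups hold this library are given with values without it. Basal keratinocyte genes were high throughout: Krt5 ranged from 8213 to 16210 normalized CPM. Cd34 stood at 467.7 to 1130 in the CD34+ libraries, at 319.6 to 382.8 in the tdTneg CD34+SCA-1+ libraries and at 22.4 to 35.7 in the tdT+ CD34+SCA-1+ libraries, so the last were low in the mRNA of a gate protein. In bulk samples fewer cells of a type and less RNA per cell cannot be told apart.

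Of the 9 members, 8 passed the filter. Ly6k, best known from testis and tumours, had 0 to 6 counts per library and did not pass, and its 0 counts in each tdT+ CD34+ library allow up to 0.136 to 0.165 normalized CPM per library (a limit of 3 counts). Per kilobase of annotated exon, Ly6d led the members in 3 groups, with a mean of 1373 normalized RPKM in tdT+ CD34+SCA-1+, 567 in tdTneg CD34+SCA-1+ and 366.5 in tdT+ CD34+ libraries. In tdTneg CD34+ libraries it stood at 89.1 (range 70.5 to 107), behind Lypd3 at 186 (171.5 to 201). Lypd3 was second in the other groups. Ly6e, Ly6a and Ly6g6c held the places from 3 to 5 in each group. In the tdT+ CD34+SCA-1+ libraries the range of Ly6g6c (57.5 to 161) overlapped those of both Ly6e (59.2 to 107) and Ly6a (127 to 244), which did not overlap each other. In the tdTneg CD34+SCA-1+ libraries Ly6e (140 to 192) and Ly6a (143 to 155) overlapped and Ly6g6c (70.5 to 126) lay below both. Ly6c1, Lynx1 and Ly6c2 came below them, with group means of at most 25.1, 4.03 and 1.39.

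**Figure D1:**
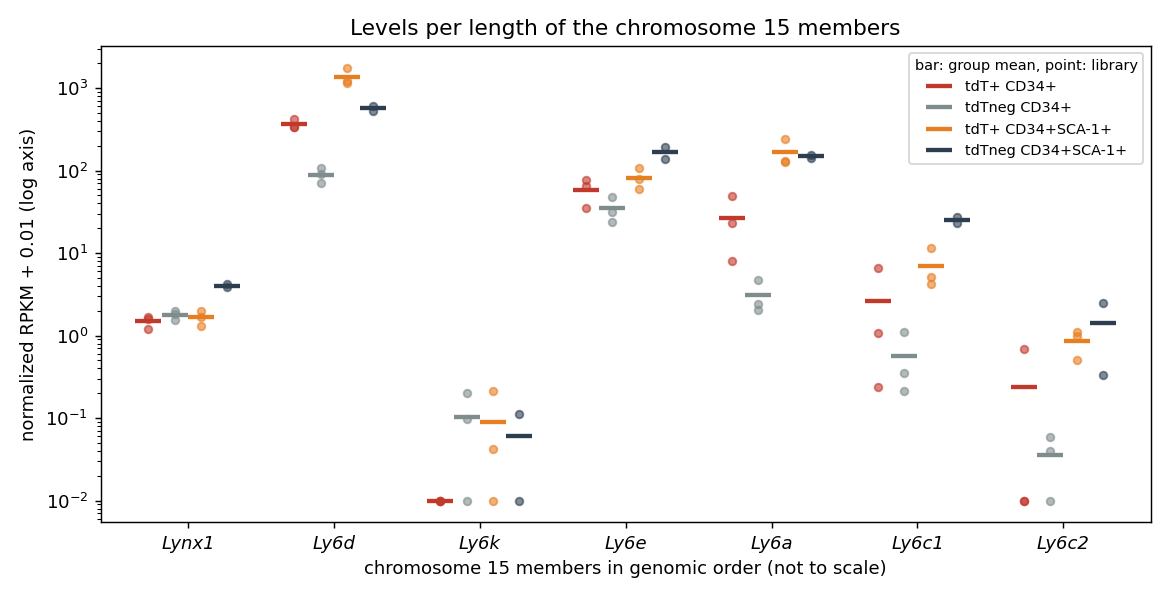
Normalized RPKM plus 0.01 (log axis) of the 7 chromosome 15 members, in genomic order and not to scale, for each library (points) with the group mean (bars) in 4 colours by group. Among these 7, Ly6d has the top level in every group, 89.1 to 1373 in the group means, and lies between Lynx1 and Ly6k, which stay at or under 4.23.

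Ly6d is given first, by tdT status. In normalized CPM, the tdT+ CD34+ libraries held 251.5, 248.5 and 318.1, and the tdTneg CD34+ libraries 79.7, 52.4 and 66.8. The groups did not overlap, and the fitted difference was a log2 fold change of 2.04 (SE 0.23, 95% interval 1.53 to 2.55), or 4.11-fold. Ly6d was listed for its difference by tdT status, so it carries no test. The library labelled tdT+ CD34+ replicate 2, which lacked the undescribed row, lay with the other tdT+ libraries in Ly6d, and without it the log2 fold change was 2.10.

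In CD34+SCA-1+ cells the tdT+ libraries held 847, 1318 and 900 normalized CPM and the tdTneg libraries 455.5 and 388.7. The 3 tdT+ libraries lay above both tdTneg libraries, 2.42-fold in the fit (log2 fold change 1.28, SE 0.26, 95% interval 0.71 to 1.84, no test). The log2 fold change was 1.27 with the replicate block and stayed between 0.99, without tdT+ CD34+SCA-1+ replicate 2, and 1.39 over 17 settings. Between the populations, Ly6d was 4.88-fold higher in CD34+SCA-1+ cells as the mean over tdT status (log2 fold change 2.29, SE 0.17, no test; 2.26 without tdT+ CD34+ replicate 2). The difference in its tdT effect between the populations was -0.76 on the log2 scale (SE 0.33, no test), and -0.83 without that library.

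T cell RNA lay in the same order over the groups as Ly6d, and so did suprabasal RNA in the group medians. The library with the top T cell sum held the top Ly6d in every group but tdT+ CD34+. The library with the top suprabasal sum did so in the tdTneg groups only. The summed level of 8 T cell markers was 24.4 to 28.2 normalized CPM in tdTneg CD34+, 33.8 to 70.6 in tdT+ CD34+, 132 to 139 in tdTneg CD34+SCA-1+ and 361 to 990.5 in tdT+ CD34+SCA-1+ libraries, and none of the 8 was at 0 in a whole group. Thy1 and Cd3g (a chain of the T cell receptor complex) led the list, and Cd3g was at 56.6 to 272 in tdT+ CD34+SCA-1+ and at 12.1 to 14.5 in tdTneg CD34+SCA-1+ libraries. Between tdT+ and tdTneg CD34+SCA-1+ cells 4 of the 8 T cell markers were called higher. The 3 genes whose log2 levels followed Ly6d most closely over the 11 libraries were Klrd1 (Pearson's r = 0.99), a receptor of NK and T cells, Galnt6 (0.99), a glycosyltransferase, and Trat1 (0.98), an adaptor of the T cell receptor. The sum of 8 suprabasal markers, led by Krt10 and Krt1, keratins of the differentiating layers, was 519 to 1817 in tdTneg CD34+ and 1762 to 4447 in tdT+ CD34+ libraries, 3254 to 7624 in tdTneg CD34+SCA-1+ and 7565 to 10720 in tdT+ CD34+SCA-1+ libraries. None of the suprabasal markers was called between tdT+ and tdTneg CD34+SCA-1+ cells, and 4 of 8 were called higher between the populations. The part of these cells in the Ly6d values was not tested.

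**Figure D2:**
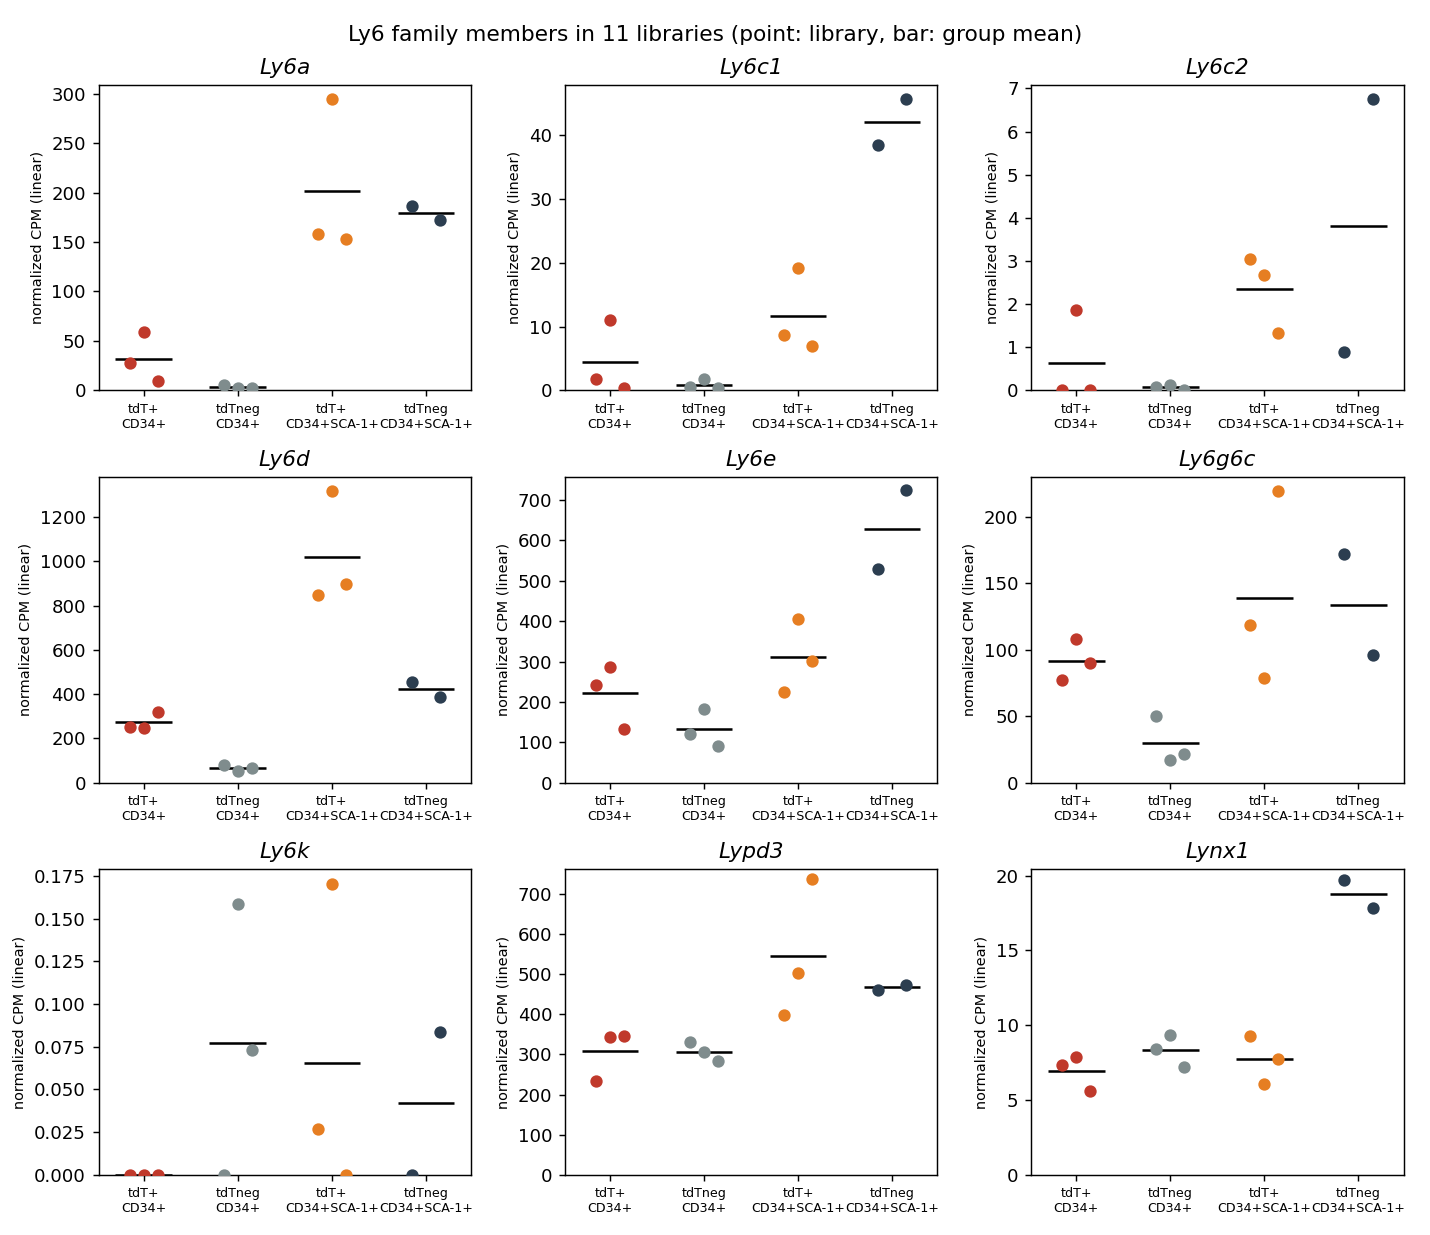
Normalized CPM (linear axes from 0) of each of the 9 members in 11 libraries, 1 point per library and a bar at each group mean. The tdT+ points of Ly6d lie above the tdTneg points in both populations (248.5 to 318.1 over 52.4 to 79.7, and 847 to 1318 over 388.7 to 455.5), whereas the tdTneg CD34+SCA-1+ libraries are the top ones in Ly6c1, Ly6e and Lynx1.

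Ly6a, which encodes the gate protein SCA-1, checked the sort. Its mRNA stood at 158, 294 and 153 normalized CPM in tdT+ and at 186.5 and 172.4 in tdTneg CD34+SCA-1+ libraries. In tdTneg CD34+ libraries it was at 5.74, 2.46 and 2.90. The tdT+ CD34+ libraries lay between, at 27.7, 59.2 and 9.64, although these cells were gated SCA-1 negative. In the same 3 libraries the summed level of 9 endothelial markers was 83.7, 724 and 6.72 normalized CPM, in the order of Ly6a. The suprabasal sums (2561, 4447 and 1762) had this order too, as did the monocyte and macrophage, Langerhans cell and interferon response sums. The sums of the other lists did not, among them that of 8 T cell markers at 33.8, 70.6 and 57.4. In the tdT+ CD34+SCA-1+ libraries, where Ly6a was higher, the endothelial sum was 46.3 to 99.8. The part of these cells in the Ly6a values was not tested. The populations did not overlap, with a log2 fold change of 4.12 (SE 0.45, no test), or 17.4-fold, and of 4.51 without tdT+ CD34+ replicate 2. Within CD34+ cells each of the 3 tdT+ libraries lay above the tdTneg ones (log2 fold change 3.11, SE 0.61, no test), or 8.66-fold. Replicate 2 was the highest of them, and without it the log2 fold change was 2.33 (SE 0.50), or 5.02-fold. In CD34+SCA-1+ cells the groups overlapped (log2 fold change 0.17, SE 0.62, 95% interval -1.21 to 1.55, edgeR adjusted p = 0.9575). The difference between these effects was -2.95 (SE 0.84, no test), and -2.16 without tdT+ CD34+ replicate 2. Zfp750, a regulator of epidermal differentiation, Neurl3, a ubiquitin ligase, and Samhd1, a nuclease of antiviral defence, followed Ly6a most closely over the libraries (r = 0.98 each).

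Ly6c1 and Ly6c2 encode the Ly6C antigens. Ly6c1 was at 8.66, 19.1 and 6.97 normalized CPM in tdT+ CD34+SCA-1+ and at 38.5 and 45.6 in tdTneg CD34+SCA-1+ libraries. In CD34+ cells the tdT+ libraries held 1.77, 11.1 and 0.39 and the tdTneg libraries 0.58, 1.85 and 0.34. Ly6c1 was called higher in CD34+SCA-1+ cells as the mean over tdT status (log2 fold change 3.45, SE 0.77, edgeR adjusted p = 0.0127), although 1 tdT+ CD34+ library, replicate 2, lay above 2 tdT+ CD34+SCA-1+ libraries. Without that library the log2 fold change was 4.46 (adjusted p = 0.00217). Within tdTneg cells it was called too (log2 fold change 5.51, SE 1.20, adjusted p = 0.0289). That call was lost without tdTneg CD34+ replicate 1 (0.0991) or 3 (0.111) and without tdTneg CD34+SCA-1+ replicate 1 (0.128) or 2 (0.0899). Within tdT+ cells it was not called (log2 fold change 1.39, SE 0.99, adjusted p = 0.3725), but without tdT+ CD34+ replicate 2 the log2 fold change was 3.41 and it was called (adjusted p = 0.0477). Between tdT+ and tdTneg CD34+SCA-1+ cells the libraries did not overlap and the difference was not called (log2 fold change -1.86, SE 1.06, adjusted p = 0.4868), but it was called in a fit of only these groups (0.0458). By tdT status in CD34+ cells the log2 fold change of Ly6c1 was 2.26 (SE 1.03, no test). It was 0.24 without tdT+ CD34+ replicate 2 and 3.245 without tdTneg CD34+ replicate 2. Ly6c2 was near the limit of detection, at 0, 1.88 and 0 normalized CPM in tdT+ CD34+, 0.083, 0.13 and 0 in tdTneg CD34+, 3.04, 2.67 and 1.34 in tdT+ CD34+SCA-1+ and 0.89 and 6.74 in tdTneg CD34+SCA-1+ libraries. In tdT+ CD34+ cells its only counts were those of replicate 2. It was not called between the populations (edgeR adjusted p = 0.0618), and was called with the replicate block (0.0256), with DESeq2 (0.0042), with a filter of 1 count (0.0157) and without tdT+ CD34+ replicate 2 (0.00639). Ly6c2 passed the main filter only through the CD34+SCA-1+ libraries, where it was higher, so these values are no independent support.

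Ly6e, a widely expressed interferon-responsive member, had a like order at a higher level. It was at 243, 287 and 133.5 normalized CPM in tdT+ CD34+ and at 120.4, 183.4 and 91.1 in tdTneg CD34+ libraries. The tdT+ CD34+SCA-1+ libraries held 224, 406.5 and 300.3 and the tdTneg ones 529.5 and 725. Ly6e was called higher in CD34+SCA-1+ cells (2.58-fold, log2 fold change 1.37, SE 0.26, edgeR adjusted p = 0.00547), and the call held in all 16 settings run, with a log2 fold change of 1.49 without tdT+ CD34+ replicate 2. Within tdTneg cells it was called as well (log2 fold change 2.25, SE 0.38, adjusted p = 0.0122), but not without tdTneg CD34+ replicate 3 (0.0551) or tdTneg CD34+SCA-1+ replicate 1 (0.0695) or 2 (0.058). Within tdT+ cells the populations overlapped and it was not called (log2 fold change 0.49, SE 0.34, adjusted p = 0.3702; 0.72 and 0.2524 without tdT+ CD34+ replicate 2). Between tdT+ and tdTneg CD34+SCA-1+ cells the groups did not overlap, and the difference was not called (log2 fold change -1.02, SE 0.38, adjusted p = 0.238). The change of the tdT effect between the populations was -1.77 (SE 0.51, no test), and -1.53 without tdT+ CD34+ replicate 2.

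Endothelial RNA was uneven between the libraries of these genes. The sum of 9 endothelial markers, led by Plvap and Pecam1, was 2705 and 3068 normalized CPM in the tdTneg CD34+SCA-1+ libraries and 46.3 to 99.8 in the tdT+ CD34+SCA-1+ libraries. In CD34+ cells it was 45.8 to 143 in tdTneg libraries and 83.7, 724 and 6.72 in tdT+ replicates 1, 2 and 3. In each of the 4 groups the library with the top endothelial sum also held the top Ly6c1. The same libraries held the top monocyte and macrophage sums and the top interferon response sums. None of the 9 endothelial markers was at 0 in a whole group. Arap3, a signalling gene active in endothelium, followed Ly6c1 most closely (r = 0.99), before 9930111J21Rik2 (0.98), an interferon-inducible GTPase gene, and Slfn2 (0.97). Tinagl1 (0.98), Arl4d (0.98) and Ugcg (0.97) followed Ly6e. Nxpe5, Lat2 and Ptpn18 (0.96 to 0.97) followed Ly6c2. The 10 listed interferon response genes summed to 282 to 428 in tdT+ and 376 to 511 in tdTneg CD34+SCA-1+ libraries, and to 147 to 292.5 in the CD34+ libraries, and 2 of the 10 were called higher in CD34+SCA-1+ cells. Monocyte and macrophage markers summed to 75.5 and 612.5 in the tdTneg CD34+SCA-1+ libraries, and Ly6c2 was at 0.89 and 6.74 in the same libraries. In tdT+ CD34+SCA-1+ replicates 1, 2 and 3 they summed to 53.2, 137 and 107, and Ly6c2 was at 3.04, 2.67 and 1.34. In the CD34+ groups the top sums, 298 in tdT+ replicate 2 and 63.2 in tdTneg replicate 2, stood with the top Ly6c2, 1.88 and 0.13. The library with the top sum thus held the top Ly6c2 in 3 of 4 groups. The part of any of these cells in the values of Ly6c1, Ly6c2 and Ly6e was not tested.

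**Figure D3:**
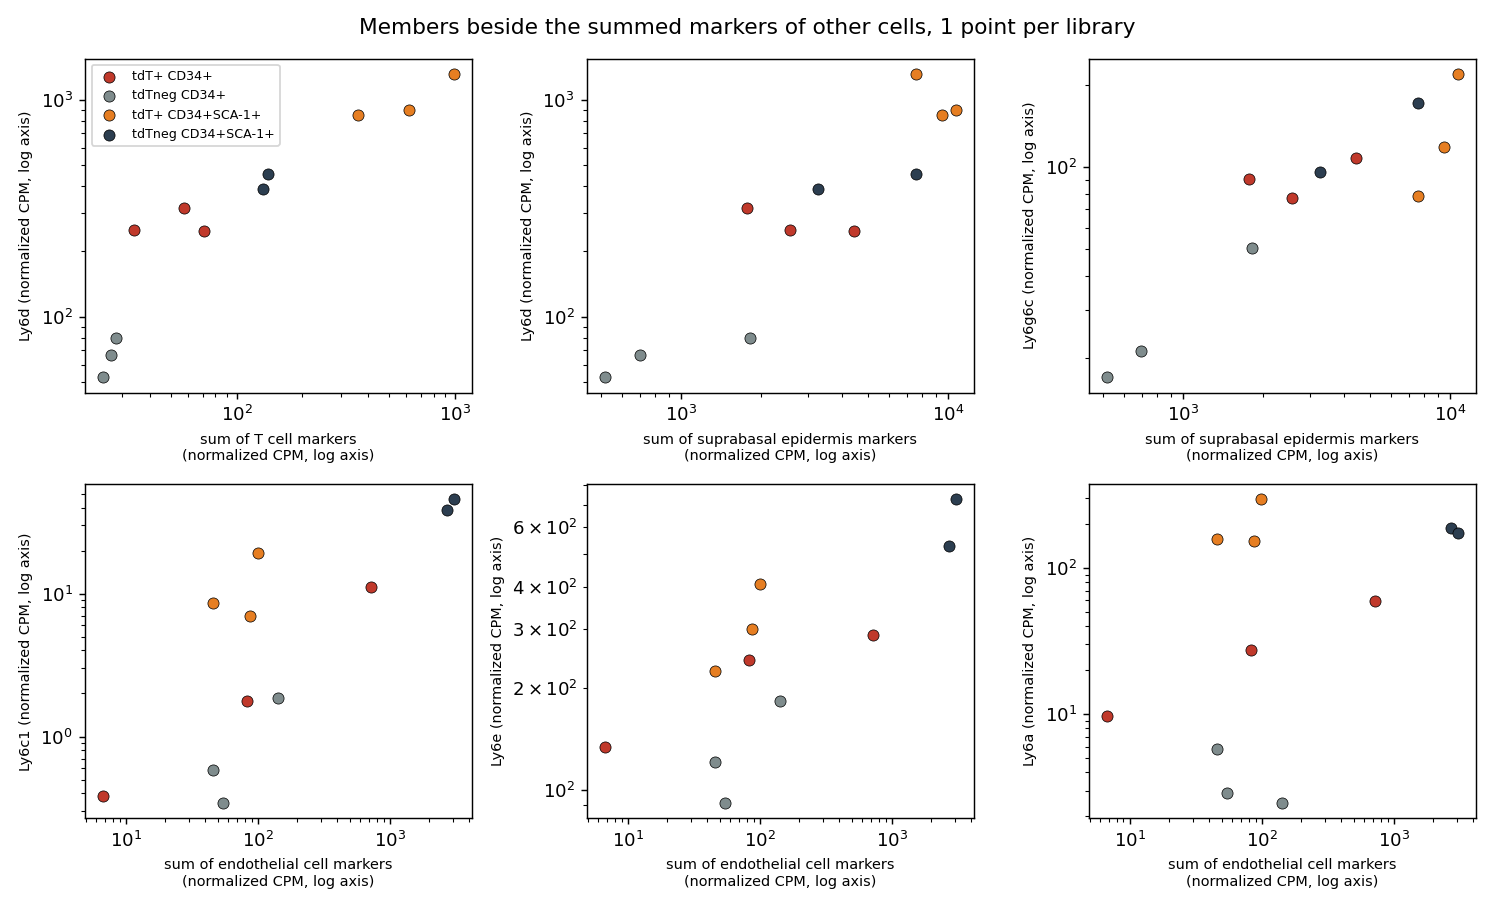
Members in normalized CPM (y, log axes) against the summed normalized CPM of marker lists (x, log axes), 1 point per library, coloured by group. Ly6d has the same order of groups as the T cell sum and, in the group medians, as the suprabasal sum. The tdTneg CD34+SCA-1+ libraries stand at 2705 and 3068 in the endothelial sum with the top Ly6c1 and Ly6e, but not with the top Ly6a.

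The members known from keratinizing epithelia were Ly6g6c and Lypd3. Ly6g6c was at 77.2, 108 and 90.3 normalized CPM in tdT+ CD34+ and at 50.4, 17.0 and 21.2 in tdTneg CD34+ libraries, which did not overlap (log2 fold change 1.64, SE 0.47, or 3.11-fold, no test). It was 2.83-fold without tdT+ CD34+ replicate 2, 2.57-fold without tdTneg CD34+ replicate 2 and 4.81-fold without tdTneg CD34+ replicate 1. Ly6g6c levels in CD34+SCA-1+ cells follow. It was at 119, 78.5 and 220 in tdT+ and at 172 and 96.4 in tdTneg CD34+SCA-1+ libraries, which overlapped (log2 fold change 0.05, SE 0.51, edgeR adjusted p = 0.9917). Between the populations Ly6g6c was called higher in CD34+SCA-1+ cells (2.62-fold, log2 fold change 1.39, SE 0.34, adjusted p = 0.0202), also without tdT+ CD34+ replicate 2 (1.46, adjusted p = 0.0311), but not without tdTneg CD34+SCA-1+ replicate 1 (log2 fold change 1.15, adjusted p = 0.111). Within tdTneg cells it was called as well (log2 fold change 2.18, SE 0.51, adjusted p = 0.0366) and lost in 6 of 17 settings, with adjusted p up to 0.317: with only the groups compared, and without tdTneg CD34+ replicate 2 or 3, tdT+ CD34+SCA-1+ replicate 1, or tdTneg CD34+SCA-1+ replicate 1 or 2. Within tdT+ cells the populations overlapped and it was not called (log2 fold change 0.60, SE 0.46, adjusted p = 0.4116; 0.73 and 0.4136 without tdT+ CD34+ replicate 2). Ephx3, an epoxide hydrolase of the epidermal barrier (r = 0.98), Ly6g6e (0.97), a family member near it on chromosome 17, and Dsc1 (0.97), a desmosomal cadherin of the upper epidermis, followed Ly6g6c most closely. The suprabasal sums were in the order of Ly6g6c within 3 of the 4 groups: 1817, 519 and 700 in tdTneg CD34+ replicates 1, 2 and 3, 9470, 7565 and 10720 in tdT+ CD34+SCA-1+ replicates 1, 2 and 3, and 7624 and 3254 in tdTneg CD34+SCA-1+ replicates 1 and 2. In tdT+ CD34+ replicates 1, 2 and 3 they were 2561, 4447 and 1762, with the top of both in replicate 2. The part of suprabasal cells in the Ly6g6c values was not tested.

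Lypd3 was high in all groups, at 233.6, 343 and 347 normalized CPM in tdT+ CD34+, 332, 305 and 283 in tdTneg CD34+, 398, 502 and 737 in tdT+ CD34+SCA-1+ and 462 and 473 in tdTneg CD34+SCA-1+ libraries. Every CD34+SCA-1+ library lay above every CD34+ library. The difference had an edgeR adjusted p of 0.0183 and was below the fold threshold (log2 fold change 0.72, SE 0.17; 0.76 without tdT+ CD34+ replicate 2). By tdT status it was close to 0 in CD34+ cells (0.01, SE 0.23, no test; -0.08 without tdT+ CD34+ replicate 2) and 0.22 in CD34+SCA-1+ cells (SE 0.26, 95% interval -0.36 to 0.80, adjusted p = 0.792). Abhd6 and Map2k3 (r = 0.96 each) with Zswim6 (0.96) followed it.

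Lynx1, known as a modulator of nicotinic acetylcholine receptors, had another pattern. The 9 libraries outside the tdTneg CD34+SCA-1+ group held 5.57 to 9.33 normalized CPM: 7.34, 7.87 and 5.57 in tdT+ CD34+, 8.41, 9.33 and 7.22 in tdTneg CD34+, and 9.30, 6.08 and 7.74 in tdT+ CD34+SCA-1+. The 2 tdTneg CD34+SCA-1+ libraries held 19.7 and 17.8. Lynx1 was called lower in tdT+ than in tdTneg CD34+SCA-1+ cells (log2 fold change -1.28, SE 0.29, edgeR adjusted p = 0.0473). The call was lost in 12 of 17 settings. These were the replicate block (edgeR adjusted p = 0.109), a filter of 1 count (0.0962) and the omission of any library other than tdT+ CD34+ replicate 3 (0.0573 without tdT+ CD34+ replicate 2). The log2 fold change stayed between -1.44 and -1.20. Between the populations within tdTneg cells it was called higher (log2 fold change 1.17, SE 0.29, edgeR adjusted p = 0.042), and this was lost in 11 of 17 settings. These were a filter of 1 count (0.119), the replicate block (0.0878) and the omission of any library other than tdT+ CD34+ replicate 3 and tdT+ CD34+SCA-1+ replicate 2. The endothelial sums given above are high in the same 2 libraries. Bace2 (r = 0.95), Gm13056 (0.95) and Cdr2l (0.95) followed Lynx1.

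The calls are set beside the share of all genes that passed the same rule. Between CD34+SCA-1+ and CD34+ cells, 3 of the 6 members tested were called, all higher (Ly6c1, Ly6e and Ly6g6c), against 11.6% of all genes, 4.77% higher and 6.79% lower. Without tdT+ CD34+ replicate 2 there were 4, with Ly6c2. All 6 had an unadjusted p under 0.05, against 34.4% of all genes. Ly6c2, 1 of the 6, passed the filter only through the CD34+SCA-1+ libraries, where it was higher. Its part in these counts between the populations is thus no independent support. All CD34+SCA-1+ libraries lay above all CD34+ libraries for 1 of these 6 (Lypd3), against 5.10% of all genes. Ly6a, which the gate separated, and Ly6d are left out of these counts. The median log2 fold change of the 6 members was 1.38, and -0.09 over all genes (1.47 and -0.08 without tdT+ CD34+ replicate 2). Within tdTneg cells 4 of 6 members were called (Ly6c1, Ly6e, Ly6g6c and Lynx1; 3, without Lynx1, with the replicate block), against 4.74% of all genes, and the count fell to 2 without tdTneg CD34+ replicate 1 or 2 or tdT+ CD34+SCA-1+ replicate 1 and to 0 without tdTneg CD34+ replicate 3 or either tdTneg CD34+SCA-1+ library. Within tdT+ cells edgeR called 0 of 6, against 8.45% of all genes; 1 had an unadjusted p under 0.05 (30.5% of all genes), DESeq2 called 0 (15.2%), and 2 were called without tdT+ CD34+ replicate 2 and 1 (Lypd3) without tdT+ CD34+SCA-1+ replicate 1.

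Between tdT+ and tdTneg CD34+SCA-1+ cells 1 of the 7 members tested was called, Lynx1, lower, against 2.31% of all genes called and 2.06% called lower. With the replicate block, which compares libraries of the same pool number, 0 were called, and so were 0 with a filter of 1 count or without any 1 library other than tdT+ CD34+ replicate 3. A fit of only these groups called 2, with Ly6c1. The groups did not overlap for 3 of the 7 (Ly6c1, Ly6e and Lynx1), against 33.0% of all genes. In CD34+ cells tdT+ lay above tdTneg libraries without overlap for 2 of 7 members, Ly6a and Ly6g6c, beside 5.07% of all genes. Ly6d, which was listed for its difference by tdT status, is left out of these counts.

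**Figure D4:**
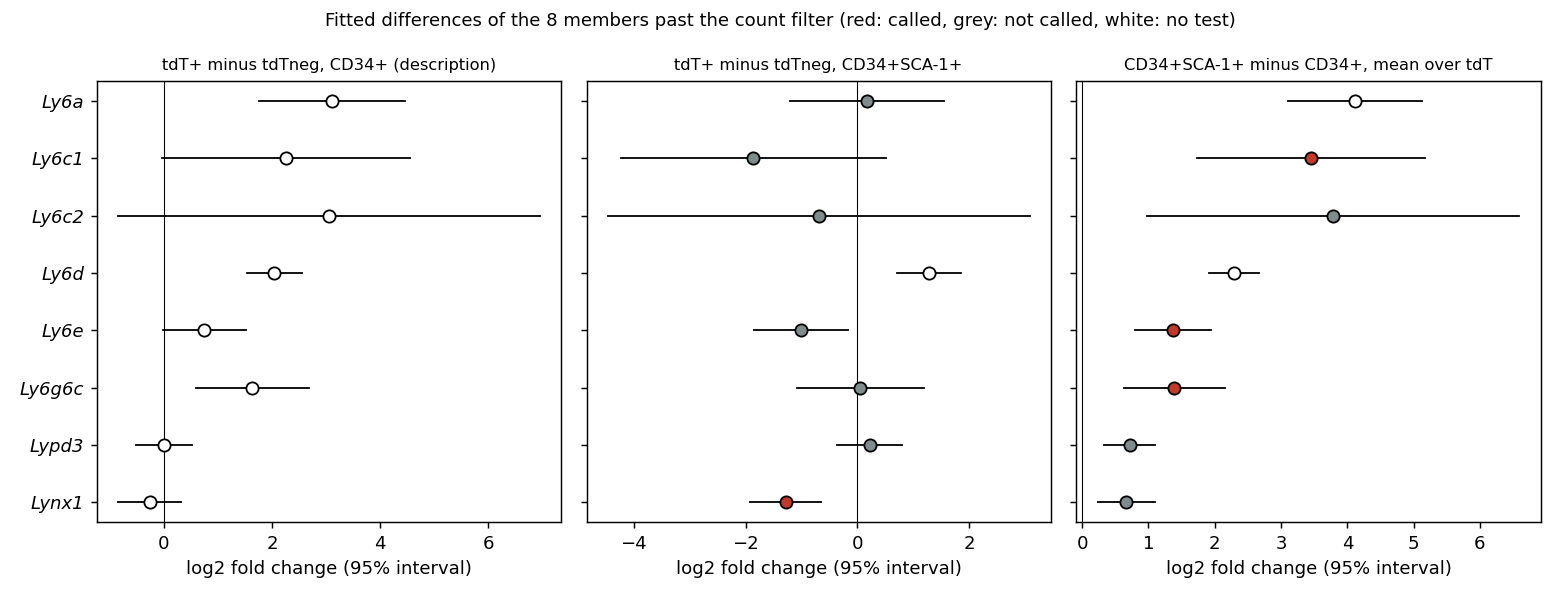
Fitted log2 fold changes (x) of the 8 members that passed the filter, with 95% intervals, for tdT+ minus tdTneg in CD34+ and in CD34+SCA-1+ cells and for CD34+SCA-1+ minus CD34+ cells. Red points were called, grey ones were not, and white ones carry no test; Ly6d is above 0 in all 3 panels (2.04, 1.28 and 2.29), and Lynx1 and Ly6e are below 0 in the middle one (-1.28 and -1.02).

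Over the 11 libraries the members shared groups, libraries and depth, so the correlations between them are descriptions. Ly6c1 and Ly6e had the highest Pearson's r of log2 levels (0.95), then Ly6a and Ly6d (0.92) and Ly6c1 and Ly6c2 (0.90). Ly6d had r = 0.83 with Ly6g6c, 0.66 with Ly6c1 and 0.04 with Lynx1, its closest neighbour in the gene order of the members on chromosome 15. Without tdT+ CD34+ replicate 2 the same 3 pairs led, with r of 0.96, 0.93 and 0.90.

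**Figure D5:**
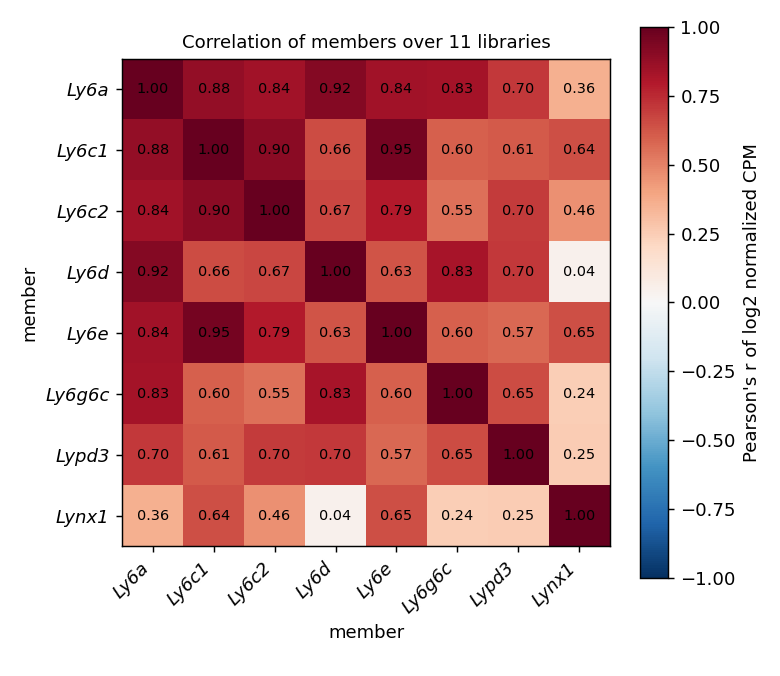
Pearson's r of log2 normalized CPM between the 8 members over 11 libraries, coloured from -1 to 1 with the value in each cell. Ly6c1 with Ly6e (0.95) and Ly6a with Ly6d (0.92) have the top values, and Lynx1 with Ly6d (0.04) the bottom one.

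Of 31 other Ly6/uPAR genes listed, 29 matched a gene in the files and 16 passed the filter. Between the populations 5 of the 16 were called, against 11.6% of all genes, with a median log2 fold change of 0.05 over the 16. Ly6g6e was called higher in CD34+SCA-1+ cells (log2 fold change 1.67, SE 0.39, edgeR adjusted p = 0.0167), at 4.69 to 19.4 normalized CPM against 0.90 to 8.76. Its annotated exons overlap those of Ly6g6d. Plaur, the urokinase receptor, was called higher (1.38, SE 0.38, adjusted p = 0.0312), at 43.1 and 52.9 in the tdTneg CD34+SCA-1+ libraries and at 3.80 to 17.0 in all others. Ly6g5b was called higher (1.81, SE 0.46, adjusted p = 0.0236), and its level lay in the tdT+ CD34+SCA-1+ libraries, with 3.89, 16.3 and 6.81 against at most 1.32 elsewhere. Lypd6, a modulator of Wnt signalling, was called lower (-1.72, SE 0.37, adjusted p = 0.011), at 1.45 to 6.76 against 9.04 to 23.8, without overlap. Ly6h, a neural member, passed the filter only through CD34+ libraries, where it was higher. Its lower calls, here and within tdT+ cells, are thus no independent support, alone or in the counts of genes called. It was called lower on few counts (edgeR adjusted p = 0.0175), at 0 to 0.22 against 0.23 to 1.87. Without tdTneg CD34+SCA-1+ replicate 1 edgeR called 0 of these, without replicate 2 of that group 2, and without tdTneg CD34+ replicate 3 or tdT+ CD34+SCA-1+ replicate 2 it called 3. Plaur was lost in 7 of 16 settings. Without tdT+ CD34+ replicate 2 edgeR called all 5, with adjusted p from 0.00257 to 0.0370. Within tdT+ cells 3 of the 16 were called, against 8.45% of all genes: Ly6g5b higher (log2 fold change 3.07, SE 0.65, edgeR adjusted p = 0.0143), and Ly6h (0.0213) and Gpihbp1 (0.0351) lower. The log2 fold change of Ly6g5b was 3.23 without tdT+ CD34+ replicate 2, and 2.30 to 3.44 over 17 settings. Its call was lost without tdT+ CD34+ replicate 1 or tdT+ CD34+SCA-1+ replicate 2 (edgeR adjusted p up to 0.0531). Gpihbp1, which carries lipoprotein lipase on capillary endothelium, had 94, 31 and 8 counts in the tdT+ CD34+ libraries, or 4.26, 1.66 and 0.44 normalized CPM. It had 0 counts in each tdT+ CD34+SCA-1+ library, which allows up to 0.080 to 0.17 normalized CPM per library (a limit of 3 counts). In the tdTneg libraries it was at 0.15 to 1.51 in CD34+ and at 0.084 and 1.36 in CD34+SCA-1+ cells. Its call was lost without tdT+ CD34+ replicate 1 or 2 or any 1 tdT+ CD34+SCA-1+ library (adjusted p up to 0.0870). The count fell to 1 without tdT+ CD34+ replicate 1, without tdT+ CD34+SCA-1+ replicate 1 or 3 and in a fit of only these groups, and to 2 without replicate 2 of either group. Within tdTneg cells 2 were called, both higher, against 4.74% of all genes: Ly6g6e (2.55, SE 0.59, adjusted p = 0.0350) and Plaur (2.53, SE 0.56, adjusted p = 0.0308). There edgeR called 0 without tdTneg CD34+ replicate 3 or tdTneg CD34+SCA-1+ replicate 1, and 1 without tdTneg CD34+ replicate 1 or 2, tdT+ CD34+SCA-1+ replicate 1 or tdTneg CD34+SCA-1+ replicate 2. Between tdT+ and tdTneg CD34+SCA-1+ cells edgeR called 0 of the 16, against 2.31% of all genes, with 5 at an unadjusted p under 0.05 (14.6% of all genes), and DESeq2 called 3 (6.03%). Ly6g5b (log2 fold change 3.45, adjusted p = 0.0515) and Plaur (-2.20, adjusted p = 0.0807) lay just outside the threshold there, and each was called in 6 of 17 settings. Besides the T cell and endothelial RNA given above, the 2 CD34+SCA-1+ groups differed in bulge markers, of which 4 of 7 were called lower in tdT+ cells (median log2 fold change -2.31) and 0 higher. Of the endothelial markers 1 of 9 was called lower, with a larger median log2 fold change of -5.22. The part of those cells was not tested.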

How the data were processed

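RNA was measured in 11 libraries in 4 groups taken from the sample labels. The deposited counts are whole reads per gene that the authors made with STAR (mm10, Ensembl release 96) and featureCounts, without normalization. Settings for strand and for reads with several matches are not given in the sources used here. Totals and tests leave out 1 row that is no Ensembl gene. Totals of 17409131 to 46542177 counts set the precision.

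Counts were fitted in R 4.3.3 with edgeR 4.0.16 (TMM, filterByExpr, 1 mean per group over all 11 libraries, glmQLFit and glmQLFTest, Benjamini-Hochberg over 20307 genes). Calls needed an adjusted p-value below 0.05 with a log2 fold change beyond 1 in either direction. Correlations used log2 CPM with a prior count of 2. Alternatives were DESeq2 1.42.0, RLE normalization, 2 further filters on low counts, a fit of only the groups compared, a replicate block and omission of each library. The scripts were tested on simulated data. Sequences were handled in Python 3.11.15 with Biopython 1.88. Reads were not analysed here.

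The members and lists were chosen with earlier results of these data known. The planned tests of Ly6d by tdT status in CD34+SCA-1+ cells and of the members' change of the tdT effect between the populations were dropped after their values were seen, because they use values that chose the list or the sorting gate. Genes named were all 9 members, the other listed Ly6/uPAR genes called in a tested comparison, the 3 genes with the highest correlation to each member, Cd34, and the 2 leading genes of a marker list.

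Libraries that share a replicate number were taken to share mice. Their deviations from the group mean, compared across genes, gave a median r of 0.08 in 15 same-number pairs (range -0.42 to 0.59) and of -0.02 in 30 other pairs.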

Additional observations from a re-analysis of the deposited data

How the results depend on the processing

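No result changed direction among those called. Ly6d between tdT+ and tdTneg CD34+ cells kept a log2 fold change of 1.90 to 2.19 and Ly6a between the populations 3.90 to 4.51 without 1 library, and the 3 members called between the populations were 2 to 4 over all settings. The other counts of members called moved as follows when 1 library was left out: 0 to 2 between the populations within tdT+ cells (0 with all), 0 to 4 within tdTneg cells (4) and 0 to 1 between tdT+ and tdTneg CD34+SCA-1+ cells (1). Of the other Ly6/uPAR genes 0 to 5 were called between the populations (5) and 0 to 2 between tdT+ and tdTneg CD34+SCA-1+ cells (0). With the replicate block 0 members were called between tdT+ and tdTneg CD34+SCA-1+ cells, and beside Lynx1 there, Ly6c2 between the populations and Lynx1 within tdTneg cells, the pairing changed no other call of the members. A filter of 1 count in any library gave 0 members called between tdT+ and tdTneg CD34+SCA-1+ cells and 3 other Ly6/uPAR genes between tdT+ and tdTneg CD34+SCA-1+ cells, and DESeq2 gave 3 of the other genes. A filter of 10 counts in every library and a fit of only the groups compared each gave 2 of the other genes, and the latter 2 members called between tdT+ and tdTneg CD34+SCA-1+ cells. The causes were not tested. RLE size factors moved the median log2 difference of the tdT effects over all genes by -0.116 and changed no call of a member. Where 1 tdTneg CD34+SCA-1+ library is left out, the other is taken to vary like the other groups. Depth limits Ly6c2, Ly6h and Ly6k, which had few or 0 counts in some libraries.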

Other observations

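Further summed levels of marker lists, in normalized CPM, were as follows. Basal keratinocyte markers summed to 16920 to 38470 over the 11 libraries. Bulge markers were at 8106 to 15040 in CD34+ and at 3338 to 5427 in CD34+SCA-1+ libraries, with 7 of 7 called lower in CD34+SCA-1+ cells. Upper follicle markers ranged from 2649 to 7143. Langerhans cell markers were at 13.7 to 294.5 in CD34+ and at 226 to 596 in CD34+SCA-1+ libraries, and 4 of 5 were called higher there. Fibroblast markers ranged from 26.9 to 477.6, melanocyte markers from 5.73 to 63.1 and B cell markers from 0.063 to 3.09, with 3 of the 5 B cell markers at 0 in both tdTneg CD34+SCA-1+ libraries. Monocyte and macrophage markers were at 4.61 to 298 in CD34+ libraries.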
